A study of Mus musculus with 2 samples.

Results

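The 6 microRNA (miRNA) genes described here lie inside the 4 mouse Hox clusters: Mir10a and Mir196a-1 in Hoxb, Mir196a-2 and Mir615 in Hoxc, Mir196b in Hoxa and Mir10b in Hoxd. They were chosen by name, and all 6 were found among the 2202 miRNA genes of the deposited tables. The data are microRNA-seq, the sequencing of short RNAs, from the adrenal gland of B6CASTF1/J females, a hybrid mouse strain, at 36 days of age, for which the labels name no treatment. There was 1 group of 2 libraries, labelled biological replicates 1 and 2. The labels number the females separately but give the same donor identifier for both, so the spread between the libraries may be technical or between animals. No other tissue, age, sex or treatment was included, and the comparisons are therefore between genes within the gland and between the libraries.

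Hox genes encode transcription factors that set position along the body axis, and their order on the chromosome follows the order of the body regions in which they act. Genes of the high-numbered groups act towards the tail and genes of the low-numbered groups towards the head. Of the miRNAs embedded between them, miR-10 and miR-196 belong to ancient families. A miRNA is cut from a hairpin RNA and pairs with messages mainly through its seed, bases 2 to 8 of the mature strand. Messages of Hox genes are known targets of both miR-10 and miR-196, and Hoxb8 is a well known target of miR-196.

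The mature sequences show which of these genes can be told apart by sequencing and which share a seed. They are RefSeq sequences on GRCm38.p6, the assembly also called mm10, written from the 5′ end with the seed in capitals. All 6 genes matched a mature entry.
miR-10a-5p: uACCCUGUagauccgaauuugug
miR-10b-5p: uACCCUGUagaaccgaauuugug
miR-196a-5p: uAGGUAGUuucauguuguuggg
miR-196b-5p: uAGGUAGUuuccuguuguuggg
miR-615-3p: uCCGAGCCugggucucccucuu
miR-99a-5p: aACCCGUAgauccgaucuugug

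The members fall into 3 seed groups. The miR-10 strands share the seed ACCCUGU and differ by 1 substitution, U12A, counted from the 5′ end with the miR-10a base given before the position. The miR-196 strands share AGGUAGU and likewise differ by 1 substitution, A12C, from miR-196a to miR-196b. No other mature miRNA of the RefSeq table had either seed, and miR-615-3p was the only one with its seed. The string AGGUAGU also stands at base 3 of 8 of the 11 mature let-7 and miR-98 sequences, 1 base further in than the miR-196 seed. miR-99a-5p represents the miR-99 and miR-100 strands, whose seed differs from that of miR-10. miR-10a-5p and miR-99a-5p share a stretch of 10 bases. It starts at base 7 of miR-10a-5p and base 6 of miR-99a-5p, so it begins inside both seeds.

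Mir196a-1 and Mir196a-2 make the same miR-196a-5p. Their hairpins are shown because the counts of these loci depend on them, with the stretch they share in capitals.
Mir196a-1: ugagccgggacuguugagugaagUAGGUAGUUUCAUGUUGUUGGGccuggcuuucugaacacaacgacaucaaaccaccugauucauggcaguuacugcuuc
Mir196a-2: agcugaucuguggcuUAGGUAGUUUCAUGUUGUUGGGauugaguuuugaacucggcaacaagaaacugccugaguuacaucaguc

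The shared stretch is 22 bases long and is the whole of miR-196a-5p. A read that holds only these bases matches both loci equally, and the tables assign multiply mapping reads to no gene. The counts of Mir196a-1 and Mir196a-2 are therefore of reads that reached past the shared stretch or came from the 3p arms, which differ at 17 of 22 bases. Their levels are uncertain, and the total of miR-196a cannot be read from them. In the other pairs of members with a RefSeq hairpin, the longest shared stretch was 15 bases, between Mir10a and Mir10b. The tables count whole genes, so reads of the 5p and 3p arms are not separated.

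The positions of the genes are given on mm10 with GENCODE M21 annotation. Mir10a (chr11:96317165-96317274, plus strand) lay inside no other annotated transcript, 12.0 kb past the coding span of Hoxb5 and 1495 bases before that of Hoxb4. Mir10b (chr2:74726070-74726137, plus strand) lay in introns of Hoxd3 and Hoxd4 transcripts, 1.14 kb before the coding span of Hoxd4. Both miR-10 genes thus stood next to a group 4 gene. Mir196a-1 (chr11:96265164-96265265, plus strand) lay in no annotated transcript between Hoxb13 and Hoxb9, 6.28 kb from the latter. Mir196a-2 (chr15:102973350-102973434, plus strand) lay between Hoxc10 and Hoxc9, in an intron of a long noncoding transcript of Hoxc5. Mir196b (chr6:52230081-52230165, minus strand) lay between Hoxa10 and Hoxa9, in an exon of 2 noncoding Hoxa9 transcripts and an intron of another. All 3 miR-196 genes were therefore on the tail side of a group 9 gene.

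Mir615 (chr15:103014910-103015001, plus strand) did not share that position. It lay in an intron of Hoxc5, between the coding spans of Hoxc6 and Hoxc4. Measured from the group 13 edge of its cluster it stood 81.6% of the way along, against 71.1% for Mir10a and 60.1% for Mir10b. Mir196b stood at 29.4%, Mir196a-1 at 41.0% and Mir196a-2 at 45.4%. The annotation thus goes against counting Mir615 with the posterior genes, and the comparison below is given with it, as the members were first divided, and without it. Besides the 6 members, the clusters held 1 other annotated miRNA gene, Gm44463 in Hoxd on the opposite strand. It had 0 counts in both libraries, for which the upper limits are 0.556 CPM and 0.990 CPM in replicates 1 and 2.

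**Figure D1:**
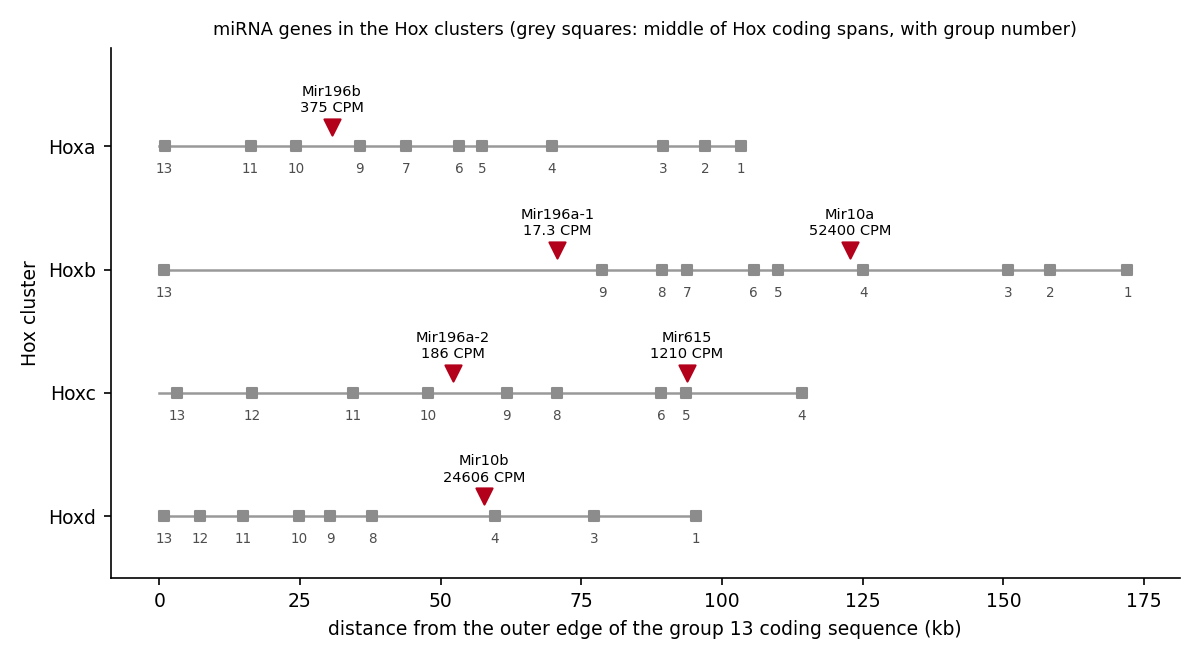
Map of the 4 Hox clusters. The horizontal axis is the distance in kb from the outer edge of the group 13 coding sequence, grey squares are Hox genes with their group number, and red triangles are the miRNA genes with their mean level in CPM over the 2 libraries. The miR-10 genes stand beside group 4, the miR-196 genes before group 9, and Mir615 at group 5.

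Expression is given in CPM, the normalised read count of a gene on its sense strand for each 1000000 sense-strand miRNA counts of the library. Replicate 1 had 5397603 such counts and replicate 2 had 3029977, so 1 count was worth 0.185 CPM and 0.330 CPM. Reads that mapped to several places were 28.5% and 30.6% of all reads. All 6 members passed 10 counts in both libraries, as did 339 of the 2202 genes, and none had a count on the antisense strand. In a whole gland, fewer cells of a type and less RNA per cell cannot be told apart.

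The miR-10 genes held nearly all counts of the 6 members. Mir10a had 234529 counts in replicate 1, or 43451 CPM (95% Wilson interval 43279 to 43623), and 185886 counts in replicate 2, or 61349 CPM (61079 to 61620). It ranked 5 in each library, and its mean was 52399.8 ± 12656 CPM (SD, n = 2). Mir10b had 86234 and 100702 counts, or 15976 CPM (15871 to 16083) and 33235 CPM (33034 to 33438). It ranked 15 and 12, with a mean of 24606 ± 12204 CPM. The pair took 7.70% ± 2.49 of the sense counts, 5.94% in replicate 1 and 9.46% in replicate 2. Mir10a was above Mir10b in both libraries, by 2.72-fold and 1.85-fold. The geometric mean of these ratios, 2.24, was within the 2.26-fold that the pooled spread between the libraries allows for a pair of genes, so their order was not beyond that spread.

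Mir615 was the next member in level. It had 9618 counts or 1782 CPM (1747 to 1818) in replicate 1 and 1935 counts or 639 CPM (611 to 668) in replicate 2. It ranked 54 and 83, and the mean was 1210.3 ± 808 CPM. The libraries lay far apart for this gene, and its place above the miR-196 genes rested mainly on replicate 1. There its level was 4.98 times the summed level of the 3 miR-196 genes, whereas in replicate 2 it was 0.799 times that sum.

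The 3 miR-196 genes had the lowest mean levels of the members, as counted from reads that mapped to 1 place. Mir196b had 914 counts or 169 CPM (159 to 181) in replicate 1 and 1761 counts or 581 CPM (555 to 609) in replicate 2, a mean of 375 ± 291 CPM, and ranked 161 and 88. Mir196a-2 had 916 and 613 counts, or 169.7 CPM (159 to 181) and 202 CPM (187 to 219), a mean of 186 ± 23.1 CPM. The level of Mir196a-2 was 1.00 times that of Mir196b in replicate 1 and 0.348 times in replicate 2, so these neighbours in level could not be put in order. Mir196a-1 was the lowest member with 100 and 49 counts, or 18.5 CPM (15.2 to 22.5) and 16.2 CPM (12.2 to 21.4), a mean of 17.3 ± 1.67 CPM. Mir196a-2 was above Mir196a-1 by 9.16-fold and 12.5-fold. As both make the same 5p strand, this compares only reads that mapped to 1 of the loci.

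Of the 15 pairs of members, 13 differed by more than the 2.26-fold limit and kept their order in both libraries. The other pairs were Mir10a with Mir10b and Mir196a-2 with Mir196b. Many of the 13 pairs include Mir196a-1 or Mir196a-2, whose levels leave out reads that mapped to both loci, so their order is uncertain. Mir615 and Mir196b, also among the 13, were only 1.10-fold apart in replicate 2. The limit covers the spread between libraries. It leaves out any effect of sequence on library yield that both libraries share, so these are orders of reads rather than of molecules.

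**Figure D2:**
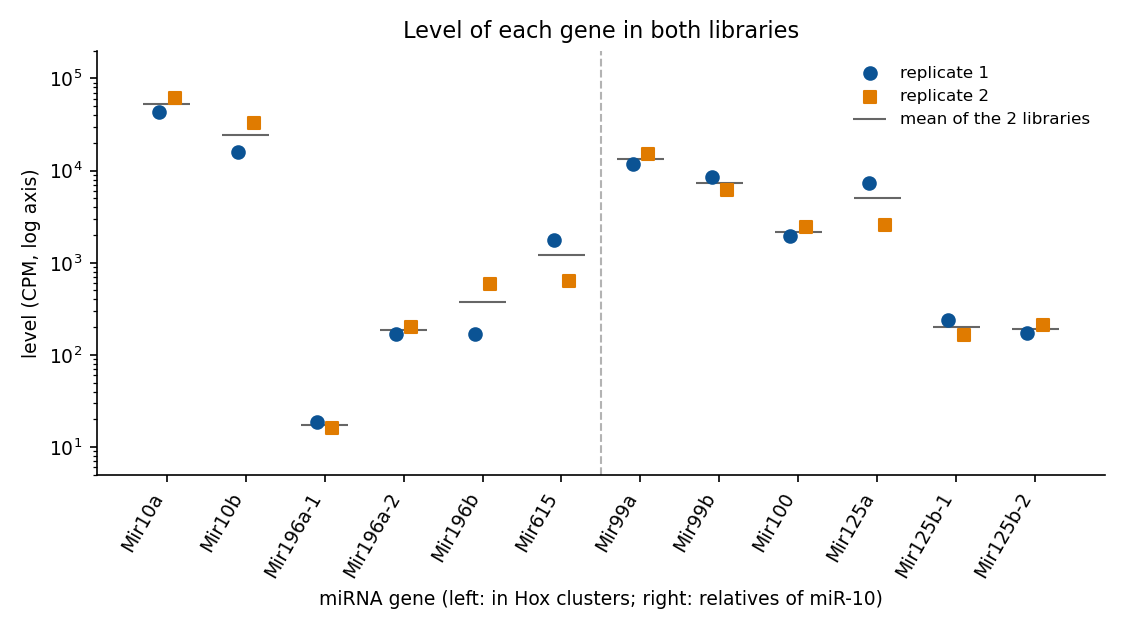
Level of each gene in CPM on a log axis, replicate 1 as blue circles and replicate 2 as orange squares, with grey bars at the mean of the 2 libraries. Left of the dashed line are the Hox-cluster genes and right of it the relatives of miR-10 outside the clusters. Mir10a and Mir10b lie above every other gene shown, and the libraries stand far apart at Mir196b, Mir615 and Mir125a.

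Anterior against posterior positions were compared as the ratio of summed counts within each library. Mir10a and Mir10b together had 27.8 times the counts of Mir196a-1, Mir196a-2, Mir196b and Mir615 in replicate 1 and 65.8 times in replicate 2 (mean 46.8 ± 26.9, SD, n = 2). The direction was the same in both libraries, and the ratio was not tested. With replicate 2 left out, the mean of 46.8 moved by over 1.5 times, to 27.8. Without Mir615, which the annotation places at group 5, the miR-10 genes had 166 times the counts of the 3 miR-196 genes in replicate 1 and 118 times in replicate 2 (142 ± 33.9). Reads of miR-196a that mapped to both of its loci are in none of these sums, which lowers the posterior side by an unknown amount. Without Mir196a-1 and Mir196a-2 on the posterior side the ratios were 30.5 and 77.5. Leaving genes out of that side can only raise the ratio, so this does not bound the missing reads. Against Mir196b alone, Mir10a had 257 and 106 times the counts in replicates 1 and 2, and Mir10b had 94.3 and 57.2 times.

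Genes of the same cluster were also compared, by position rather than by the first division of the members. In Hoxb, Mir10a and Mir196a-1 lie 51.9 kb apart on the same strand, and Mir10a had 2345 and 3794 times the counts of Mir196a-1. In Hoxc, Mir615 and Mir196a-2 lie 41.5 kb apart on the same strand, and Mir615 had 10.5 and 3.16 times the counts of Mir196a-2. In both clusters the gene on the head side had more counts in each library. The lower gene was a miR-196a locus each time, with the same reservation about its reads. Across clusters, level did not follow position. Mir615 stood furthest along at 81.6%, yet Mir10a had 24.4 and 96.1 times its counts in replicates 1 and 2, and Mir10b 8.97 and 52.0 times.

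The relatives of miR-10 outside the Hox clusters were set beside it. These are the miR-99 and miR-100 genes, whose mature strands resemble miR-10, and the miR-125 genes that lie beside them. The miR-125 genes are included for that position only, as their 5p seed, CCCUGAG, is not that of miR-10. The 6 genes together had 30102 and 26652 CPM in replicates 1 and 2, against 59427 and 94584 CPM for the pair of miR-10 genes. Mir99a had 11847.5 and 15029 CPM, Mir99b 8499.7 and 6239 CPM, and Mir100 1932 and 2430.4 CPM. Mir125a had 7410.3 and 2579 CPM, Mir125b-1 241 and 163 CPM, and Mir125b-2 171 and 213 CPM. The 2 miR-125b genes make the same miR-125b-5p, so their counts carry the same reservation as those of Mir196a-1 and Mir196a-2. Mir10a was above each of the 6 relatives by more than the 2.26-fold limit, from 3.87-fold over Mir99a upwards in geometric mean. Mir10b was beyond it for 5 of 6, the exception being Mir99a at 1.73-fold.

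The libraries were then compared gene by gene, after scaling with TMM, a method that sets library sizes so that most genes show no change. A two-sided exact binomial test, adjusted by Benjamini-Hochberg over all genes tested, asked whether a gene's counts differed by more than counting error. It compares these libraries and not conditions. It called 58.5% of the 434 genes that reached 10 counts over the libraries combined. The share called towards replicate 1 was 30.2%, and that towards replicate 2 was 28.3%. Among the 6 members, 5 were called, of which 1 was higher in replicate 1 and the other 4 were lower there. With a background of 58.5% over all genes tested, a call here says little about the members. The share among genes of the members' depth was not computed. The median of their log2 ratios, replicate 1 over replicate 2, came to -0.68, against 0.06 for all genes tested. Scaling by total counts shifted every log2 ratio by 0.30, to medians of -0.38 and 0.37, and put 69.5% of all calls towards replicate 1 in place of 51.6%.

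Mir10a and Mir10b were both higher in replicate 2, by 1.74-fold (log2 ratio -0.80) and 2.56-fold (log2 ratio -1.36). Their p-values were too small for double precision to hold. By total counts the difference was 1.41-fold and 2.08-fold, in the same direction. Mir196b differed most of the members, with 4.23-fold more in replicate 2 (log2 ratio -2.08, exact binomial adjusted p = 9.6e-293), and 22 of the 434 genes differed by more. Mir196a-2 went the same way by 1.47-fold (log2 ratio -0.56, exact binomial adjusted p = 1.39e-12). Mir615 was the member that went the other way, 2.26-fold higher in replicate 1 (log2 ratio 1.18, exact binomial adjusted p = 8.68e-278). The log2 ratio of Mir196a-1 was -0.11 ± 0.25 (counting SE, exact binomial adjusted p = 0.736), and 0.19 when scaled by total counts, so it has no stated direction.

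**Figure D3:**
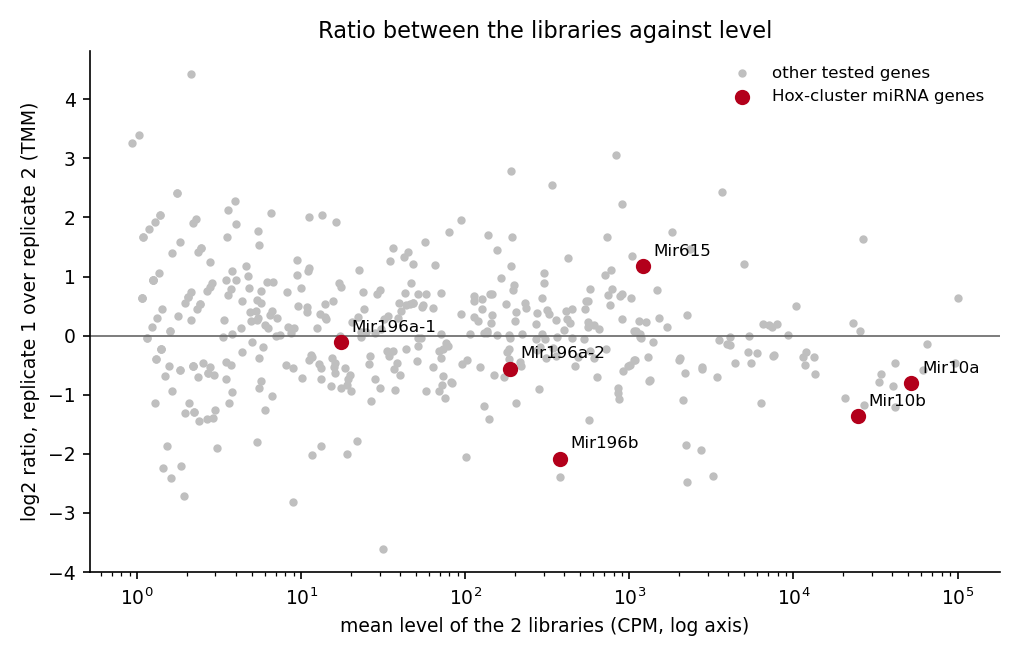
Log2 ratio of replicate 1 over replicate 2 after TMM scaling against mean level in CPM on a log axis, with 1 point for each of the 434 genes tested and the members in red. Mir196b at -2.08 lies towards the lower edge of the cloud, Mir615 at 1.18 lies above zero, and the other members lie inside the cloud.

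Against the spread between libraries instead of counting error, no member was called. The pooled coefficient of variation over all genes was 41.6%, and edgeR's exact test with that spread called 0% of the 434 genes after Benjamini-Hochberg adjustment, with 24 genes at an unadjusted p under 0.05. Mir196b was 1 of these 24 (unadjusted p = 0.0211, adjusted p = 0.765 in edgeR's exact test), and the other members had an adjusted p of at least 0.999. The 95% interval of its log2 ratio with the pooled spread ran from -3.75 to -0.41. For Mir10b the interval was -3.02 to 0.30, for Mir10a -2.46 to 0.86 and for Mir615 -0.49 to 2.84. The spread was estimated from the same libraries, so real differences between them widen it.

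**Figure D4:**
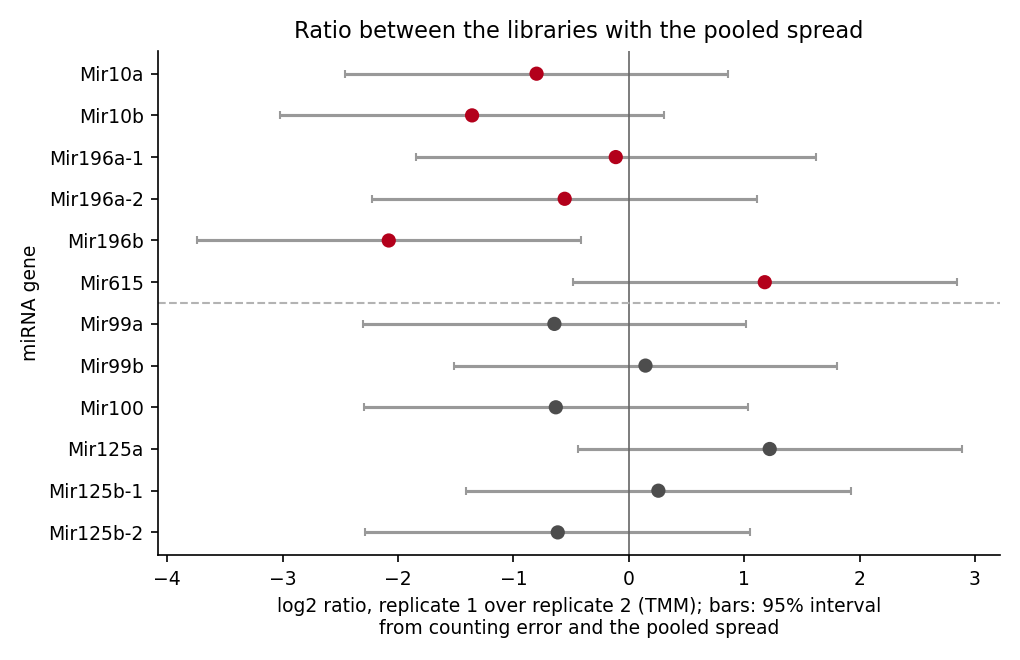
Log2 ratio of replicate 1 over replicate 2 after TMM scaling, members in red and miR-10 relatives in grey, with bars for the 95% interval from counting error and the pooled spread. Among the 12 genes, Mir196b alone has an interval (-3.75 to -0.41) that leaves out 0.

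The relatives did not share 1 direction. Mir99a (log2 ratio -0.65), Mir100 (-0.63) and Mir125b-2 (-0.62) were higher in replicate 2 like the miR-10 genes. Mir99b (0.14), Mir125b-1 (0.26) and Mir125a (1.22) were higher in replicate 1. All 6 were called by the exact binomial test, with an adjusted p of at most 0.00152, beside the background of 58.5%. These 6 directions were the same with total counts and with DESeq2 size factors, and none was called with the pooled spread (edgeR's exact test, adjusted p of at least 0.999). The median of the relatives was -0.24 with TMM and 0.07 with total counts.

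Marker genes fixed for other cell types were compared between the libraries in the same way. Their calls are of the exact binomial test, beside the background of 58.5% of all genes tested, 30.2% towards replicate 1 and 28.3% towards replicate 2. With the pooled spread in edgeR's exact test, 0 of the 434 genes were called, the markers included. Higher in replicate 2, with Mir10a, Mir10b and Mir196b, were both smooth-muscle genes (Mir143 and Mir145a, summed 30239.7 and 59237 CPM in replicates 1 and 2) and all 5 white-cell genes (1928 and 2617 CPM). Of the white-cell genes, Mir342 turned towards replicate 1 by total counts (583 and 568 CPM). Epidermal Mir203 had 822 and 3691 CPM, and Mir205, which had 7 counts and 1 count, was not tested. Higher in replicate 1, with Mir615, were endothelial Mir126a (133209 and 69285 CPM), hepatocyte Mir122 (1503 and 146 CPM) and all 3 red-cell genes (1209.98 and 576 CPM). Of the 5 kidney-tubule genes, kidney being a neighbouring organ, 3 of 4 tested were higher in replicate 1 and 1 in replicate 2 (172 and 98.0 CPM summed). Their Mir194-1 and Mir215 had 0 counts in replicate 2. The 6 skeletal-muscle genes summed to 476 and 495 CPM, nearly all of it Mir206, and Mir1a-1 and Mir133a-2 had 0 counts in both libraries. Of the fibroblast genes Mir214 was higher in replicate 1 and Mir199b in replicate 2 (1549 and 288 CPM summed over 4 genes), with Mir199a-1 at 0 in both. The endocrine genes, led by Mir375, summed to 31668 and 25395 CPM, with 1 called in each direction. Some lists hold loci named as copies, such as Mir1a-1 with Mir1a-2, Mir133a-1 with Mir133a-2, Mir194-1 with Mir194-2 and Mir199a-1 with Mir199a-2. As for Mir196a-1 and Mir196a-2, a read that fits both copies equally would be counted for neither. A 0 at such a locus therefore does not show absence, and the sums of these lists may be too low. The part of these other cell types in the ratios of the Hox-cluster genes was not tested.

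Base composition moved with the ratio as well. Across the 378 tested genes with a RefSeq mature sequence, which are not independent replicates, Spearman's rho between the log2 ratio and the GC content of the mature strands was 0.34. Mir615 had the highest GC content of the members, 70.5% as the mean of its arms, and the others had 39.9 to 52.3%. With a linear trend removed, the log2 ratio of Mir615 went from 1.18 to 0.54 and that of Mir196b from -2.08 to -2.23. Mir10a went to -0.61, Mir10b to -1.23 and Mir196a-2 to -0.52. The arms of Mir615 have 63.6% (3p) and 77.3% (5p) GC, and the counts do not show which was read. The part of base composition in these ratios was not tested.

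Genes with the most similar levels were named by the distance of log2(CPM + 1) over the 2 libraries, a likeness that rests on 2 points for each gene. For Mir10a they were Mir378a (distance 0.38) and Mirlet7i (0.51), and for Mir10b they were Mir21a (0.25) and Mir322 (0.37). Nearest to Mir615 were Mir15b (0.40) and Mir16-1 (0.43). Nearest to Mir196b was Mir376c (0.25), followed at a longer distance by Mir30b (0.87). Mir196a-2 was nearest to Mir125b-2 (0.07) and Mir421 (0.12), and Mir196a-1 to n-TSaga9 (0.07) and Mir493 (0.28).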

How the data were processed

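For every miRNA gene the deposited tables give the authors' raw read counts on mm10 with GENCODE M21, per the notes deposited with each library. Which aligner, counter and trimming were used is not given in the sources used. The 3 unnamed count columns were read as counts without strand, sense and antisense, and the sense column was used. The columns add up to the same total once the entries that name no gene are included, which does not show their order. For each member the column without strand equalled the sense column, and the antisense column held 0. The 4 entries that name no gene were left out of library sizes. Members and lists were chosen with earlier results of these data known.

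CPM is the sense count over the library's sense total, times 1000000. Between the libraries, all genes with at least 10 counts over both were tested with scipy 1.17.1 (exact binomial test, two-sided) on TMM effective library sizes (edgeR 4.0.16, R 4.3.3), with Benjamini-Hochberg adjustment over all genes tested (statsmodels 0.14.6), a threshold of 0.05 and a prior of 0.5 counts in ratios. The pooled spread is the common dispersion that edgeR gives for an intercept-only fit, also used in edgeR's exact test. Intervals of shares are 95% Wilson intervals. A count of 0 allows up to 3 counts. Both cover counting error only, and PCR copies cannot be told from separate molecules. The alternatives were other scalings (total counts, DESeq2 1.42.0), minimums of 1 and 50 counts, a prior of 2 counts, counts without strand, thinning of replicate 1 and leaving out each library. Removing the GC trend and leaving out Mir615 were chosen after seeing the data. The named genes are the members, 6 relatives of miR-10, any other miRNA gene inside a Hox cluster, and for each member with at least 100 counts the 2 genes nearest in level. Marker genes are given where they differ between the libraries or are at 0. The binomial test was tried on simulated counts with counting error only, scaled by total counts. The search for shared stretches and substitutions was tried on made-up strings. The other steps were not simulated. Figures were drawn with matplotlib 3.10.9, and tables made with numpy 2.4.6 and pandas 2.3.3 under Python 3.11.15.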

Additional observations from a re-analysis of the deposited data

How the results depend on the processing

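With 2 libraries, leaving out 1 gives the other library's value: the ratio of anterior to posterior counts was then 27.8 or 65.8, and Mir196b 169 or 581 CPM. That ratio was 142 without Mir615. With the pooled spread in edgeR's exact test, the counts of genes called went to 0 in both directions, and the log2 ratios of Mir10a (-0.80), Mir10b (-1.36), Mir196a-2 (-0.56), Mir196b (-2.08) and Mir615 (1.18) lost their calls. The log2 ratio of Mir196a-1 turned to 0.19 with total counts, 0.019 with a minimum of 1 count and 0.058 with replicate 1 thinned, and was called under none of the settings tried. The other 5 members kept their direction under every setting tried. Without Mir126a in the total, Mir196a-1 had 19.4 CPM. With counts without strand, whose total over miRNA genes is smaller, it had 21.7 CPM and Mir196a-2 had 231 CPM. No paired analysis was possible because there is only 1 group. Depth limits Mir196a-1 most, with 49 counts in replicate 2. The mice are hybrids and the reference is of 1 strain, and the effect of allelic differences on mapping was not tested.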

Other observations

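Mir615 and Mir196a-2 lie in introns of the same long noncoding Hoxc5 transcript, 41.5 kb apart, yet went opposite ways between the libraries, with log2 ratios of 1.18 and -0.56. Mir10b and Mir196b, in Hoxd and Hoxa, were both at least 2-fold higher in replicate 2, as was no other member. In either direction, 3 of the 6 members differed at least 2-fold, beside 25.8% of all 434 genes tested. Whether the ratios of these members differ from each other beyond the pooled spread was not tested.

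The chr16 pair Mir99a and Mir125b-2 had nearly the same log2 ratio, -0.65 and -0.62, while the chr17 pair Mir99b and Mir125a had 0.14 and 1.22 and the chr9 pair Mir100 and Mir125b-1 had -0.63 and 0.26.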
